A study of Mus musculus with 6 samples.

Results

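Translation initiation factors (eIF) and elongation factors (eEF) are the cytosolic proteins that place a ribosome on the start codon of an mRNA and then move it along the reading frame. Their genes, with those of their inhibitors and modifying enzymes, were taken from the deposited table by name: symbols beginning with Eif and a digit from 1 to 6, or with Eef and 1 or 2, without the Eif2ak kinases and the pseudogenes, and with at least 60 reads summed over the libraries. This gave 60 of 18491 genes, 12 of them named as elongation factors and 48 as initiation factors. Just inside the minimum stood Eif4a3l2 with 134 reads and Eif3j2 with 719, and just outside it Eif5a2 with 49, Eef1akmt3 with 48 and Eif4a3l1 with 30. All 60 passed the filter on low counts and were tested.

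The libraries come from blood stem and progenitor cells (HSPC) of mouse bone marrow, isolated by flow sorting, and comprise 3 wild-type (WT) and 3 Robo1 knockout (KO) RNA-seq libraries. Robo1 encodes a receptor for Slit ligands, and the design text describes its deletion by Mx1-cre, a recombinase driven by an interferon-responsive promoter and so active in blood cells and in other interferon-responsive tissues. Both groups were sampled 8 months after 3 doses of poly(I:C), the double-stranded RNA analogue that switches the recombinase on. Other label fields call the same libraries a scramble shRNA control and shRNA knockdowns, naming ROBO1, ROBO2 and ROBO3 in turn for KO 1, 2 and 3; groups here follow the description field. The labels give no age, sex or strain, and do not say whether the libraries are separate animals, so p-values measure only the spread between these libraries. The targeted transcript was not analysed here, so the labels were not checked against it.

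Libraries held 42235077 to 58106099 counted reads. The 100 most counted genes took 42.3 to 43.3% of reads in WT and 59.7 to 60.8% in KO, and the choice of scaling therefore moves every gene. Scaling with TMM, which sets libraries level over their typical genes, gave a median log2 fold change (KO minus WT) of -0.09 over the 15474 genes tested, and scaling by total reads gave -1.22, a shift of -1.13. Values below are CPM, the reads of a gene over the scaled size of its library, and log2 fold changes with TMM unless total reads are named, and a gene was called at an adjusted p under 0.05 in edgeR's quasi-likelihood test. All 12 stem and progenitor markers on the list had reads in every library, with a summed level of 221 to 229 CPM in WT and 196 to 216 in KO. Of these 12, 1 was called higher and 4 lower, where 17.2% of all genes tested were called higher and 14.4% lower. The 9 genes listed as neutrophil markers, all with reads in every library, summed to 84940 to 95293 CPM in WT and 265330 to 281220 in KO. This list does not tell neutrophils apart from their progenitors. Most of that sum was Mpo and Elane, at 50838 and 34609 CPM in WT 1 and 152780 and 91599 CPM in KO 1. Of the 9, 7 were called higher and 0 lower, and Ltf and Camp had no call. The sums were 5496 to 6671 and 41879 to 47534 CPM for the 6 eosinophil, basophil and mast cell markers, all with reads in every library, and 13495 to 14456 and 41782 to 43913 CPM for the 9 B and plasma cell markers, of which Ms4a1 had no reads in KO 1. Calls were 4 higher and 0 lower for the former, and 3 higher and 3 lower for the latter. The part of these cell types in the results below was not tested, and in these pooled cells a change in the share of a cell type cannot be told apart from a change in RNA per cell.

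Initiation begins when eIF2, bound to GTP and the initiator tRNA, joins the small ribosomal subunit together with eIF1, eIF1A, eIF3 and eIF5, while eIF4E, eIF4G and the helicase eIF4A bring in the capped mRNA. eIF5B then joins the large subunit, which eIF6 otherwise keeps apart. In elongation eEF1A delivers aminoacyl-tRNAs, the eEF1B complex recharges eEF1A with GTP, and eEF2 translocates the ribosome. Many of these mRNAs begin with a run of pyrimidines (C and T in the gene), the terminal oligopyrimidine or TOP element through which mTORC1 controls their translation.

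The start regions of the members that moved most are shown first. They are RefSeq windows on GRCm38.p6 (mm10) from 60 bases before to 30 after a listed start. Capitals mark a TATANAA match, or the longest C/T run within 30 bases of the start where it reached 8 bases. Runs were cut at the edges of that stretch, so a run crossing an edge, as in Eif1ad, can stay in lower case. The 4 members with the largest rises among those with 1 listed window were these.
Eef1a1, chr9:78481695-78481784, minus strand: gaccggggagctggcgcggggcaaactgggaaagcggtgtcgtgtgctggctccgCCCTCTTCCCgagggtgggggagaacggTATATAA
Eif4a1, chr11:69672394-69672483, minus strand: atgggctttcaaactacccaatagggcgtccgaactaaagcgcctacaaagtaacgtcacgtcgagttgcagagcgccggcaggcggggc
Eif1, chr11:100319889-100319978, plus strand: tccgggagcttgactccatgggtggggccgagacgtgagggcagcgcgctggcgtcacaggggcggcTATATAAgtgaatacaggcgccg
Eif3k, chr7:28981859-28981948, minus strand: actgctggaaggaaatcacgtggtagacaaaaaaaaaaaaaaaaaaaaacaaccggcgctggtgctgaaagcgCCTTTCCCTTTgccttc
The 4 with the largest falls, chosen in the same way, were these.
Eif3f, chr7:108934355-108934444, plus strand: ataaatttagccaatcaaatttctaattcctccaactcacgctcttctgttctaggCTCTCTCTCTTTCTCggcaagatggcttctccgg
Eif5b, chr1:37997950-37998039, plus strand: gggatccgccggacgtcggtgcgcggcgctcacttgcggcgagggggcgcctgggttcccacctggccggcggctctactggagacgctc
Eif1ad, chr19:5366753-5366842, plus strand: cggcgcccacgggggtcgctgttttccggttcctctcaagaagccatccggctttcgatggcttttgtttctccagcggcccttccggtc
Eif3b, chr5:140419245-140419334, plus strand: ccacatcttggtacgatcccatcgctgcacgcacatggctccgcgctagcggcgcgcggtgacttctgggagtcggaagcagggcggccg
Eef2, the translocase, is shown because it holds both elements near its start.
Eef2, chr10:81176571-81176660, plus strand: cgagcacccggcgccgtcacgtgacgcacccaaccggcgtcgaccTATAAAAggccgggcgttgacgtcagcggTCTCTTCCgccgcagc

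The longest of these runs, 15 bases, belonged to Eif3f, which fell, and the runs of 10 and 11 bases belonged to Eef1a1 and Eif3k, which rose with TMM. A C/T run of at least 10 bases within 30 bases of the listed start was found in 12 of the 60 windows of the 46 members that had one, 20%, against 10.93% of 32851 windows of the whole RefSeq table. TATANAA, searched on both strands of the 300-base windows, was found in 4 of the 60 (Eef1a1, Eef2, Eif1 and Eif3c), 6.67%, against 11.35% of all windows. In the Eef1a1 and Eif1 windows the match lay after the listed start, and in the Eef2 window before it. A match describes letters only, and several members have more than 1 window. The other 14 members had no window matched.

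The 60 genes took 1.69 ± 0.00290% of all reads in WT and 1.69 ± 0.0389% in KO (mean ± SD, n = 3 each). That comparison is one by total reads: with TMM their summed level went from 11410 ± 313 to 25096 ± 93.9 CPM, 2.2-fold higher. Shares of the members' own reads need no scaling, and by that measure the 3 most counted genes gained. Eif5a, whose hypusine-bearing protein assists both elongation and termination although it is named as an initiation factor, took 30.2, 29.98 and 29.9% of the members' reads in WT and 35.9, 37.3 and 39.2% in KO. Eef1a1 took 10.7, 10.2 and 10.9% in WT and 19.6, 18.6 and 17.03% in KO. Eif4a1, the main eIF4A helicase, took 8.33, 8.12 and 7.97% in WT and 10.4, 10.8 and 11.1% in KO. For each of the 3 every KO library lay above every WT library. Together they rose from 48.8 ± 0.458% to 66.7 ± 0.712% of the members' reads, and the other 57 members went from 51.2 ± 0.458% to 33.3 ± 0.712%. These 3, the most counted members, were singled out after their values were seen, and with 3 libraries against 3 an exact test cannot go below p = 0.1.

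**Figure D1:**
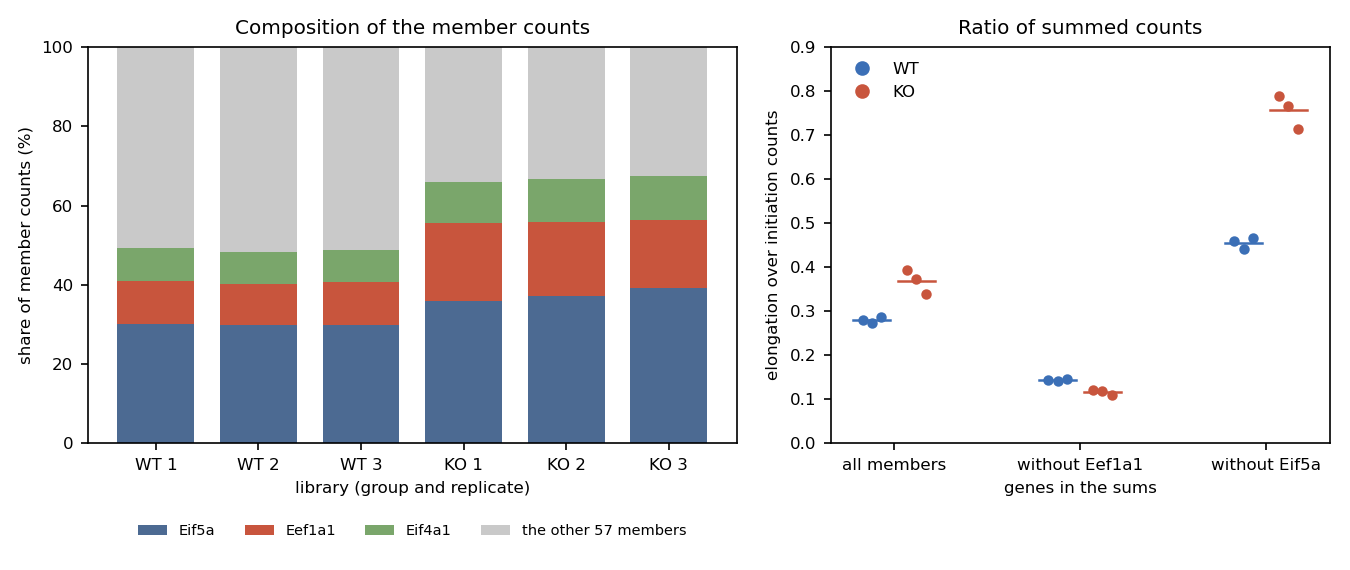
Left, share of the members' reads (percent, y axis) taken by Eif5a, Eef1a1, Eif4a1 and the other 57 members in each of the 6 libraries; the 3 named genes hold 48.8% on average in WT and 66.7% in KO. Right, summed reads of elongation over initiation factors in each library (points) with group means (lines), for all members, without Eef1a1 and without Eif5a; KO lies above WT except without Eef1a1, where it lies below.

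Called one by one, 27 of the 60 genes were higher in KO and 10 were lower with TMM, where 17.2% of all genes tested were called higher and 14.4% lower; with total reads 3 were higher and 53 lower, against 4.23% and 70.7% of all genes. The median over the members was 0.22 (TMM) and -0.92 (total reads) on the log2 scale, beside -0.09 and -1.22 over all genes. DESeq2 called 28 members higher and 10 lower (15.3% and 11.7% of all genes), and the fit corrected for length and GC content called 32 higher and 7 lower (16.8% and 12.7% of all genes). Every KO library lay above every WT library for 29 members and below for 13, against 22.2% and 24.4% of all genes. The 3 called higher with both scalings were Eef1a1, Eif4a1 and Eif5a. Of the other 24 higher with TMM, 22 were called lower with total reads and 2, Eef1g and Eif1, had no call. The 10 lower members were lower with both scalings: Eif3f, Eif5b, Eif4g3, Eif1ad, Eif3b, Eif3j1, Eif4enif1, Eif2a, Eif4b and Eif2b3. Of these, 6 were lower in every setting and every fit that left out a library: Eif1ad, Eif3b, Eif3f, Eif4b, Eif4g3 and Eif5b. The authors' deposited table classes 5 members as up (Eef1a1, Eef1g, Eif1, Eif4a1 and Eif5a) and the other 55 as stable. Their log2 fold changes for the 5 run from 1.08 to 1.94. Stable members can still have a small adjusted p in the authors' DESeq2 test. Examples are Eif3k (log2 0.96, adjusted p = 1.1e-37), Eef1b2 (0.89, 1.4e-32) and Eif3f (-0.98, 2.2e-16). These classes therefore cannot be set directly against the calls above.

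**Figure D2:**
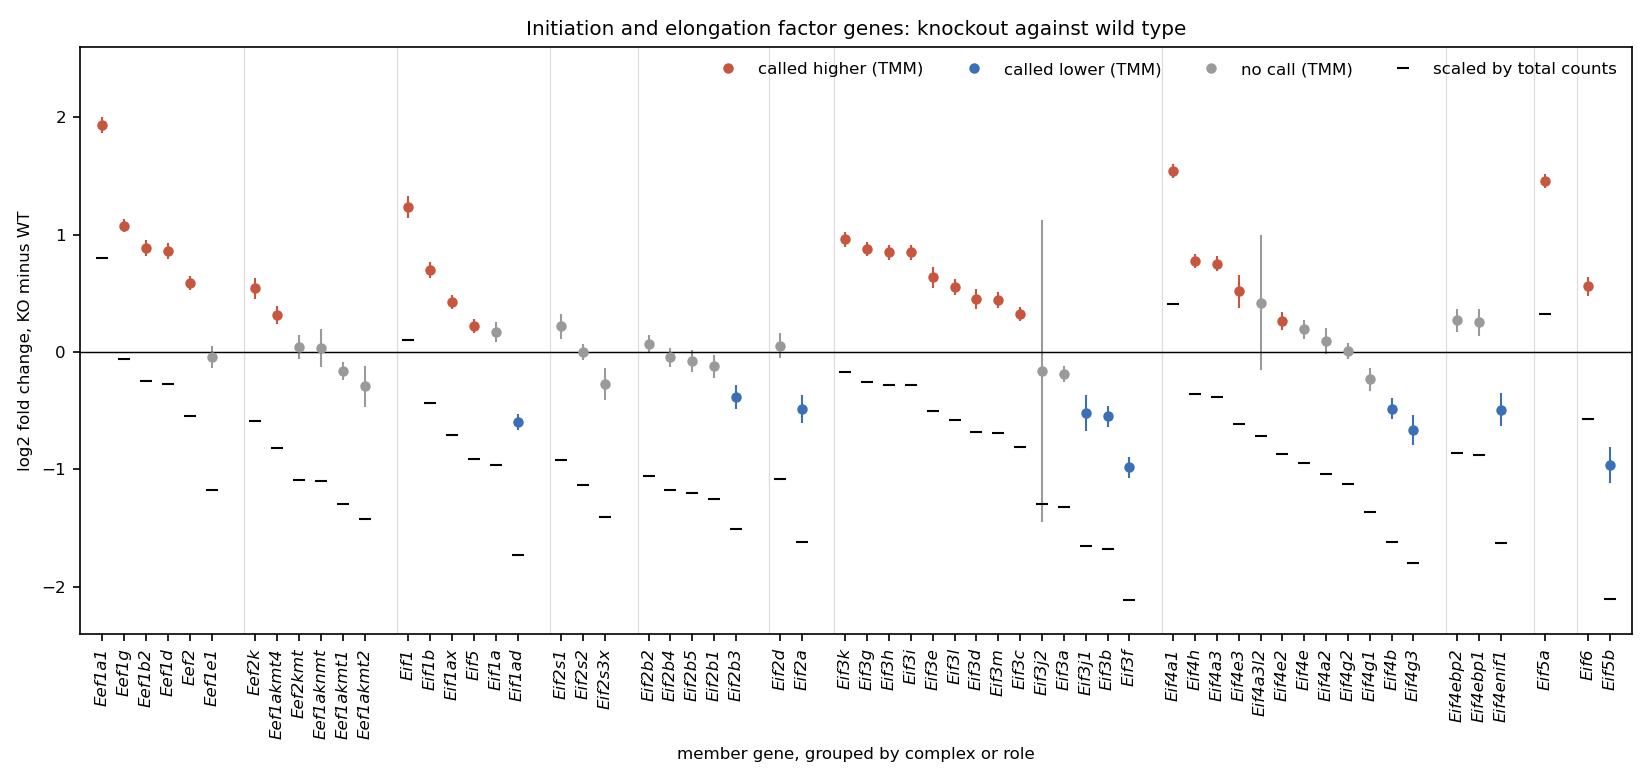
Log2 fold change (KO minus WT, y axis) of every member, grouped by role along the x axis: points with standard error bars for TMM, coloured by call, and black dashes for scaling by total reads. Eef1a1, Eif4a1 and Eif5a are called higher under both scalings, and the 10 lower members are lower under both.

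Among the elongation factors 7 of 12 were higher and 0 lower with TMM, with a median log2 fold change of 0.43, whereas with total reads 1 was higher and 10 lower with a median of -0.70. Over all genes tested 17.2% were higher and 14.4% lower with TMM, and 4.23% and 70.7% with total reads. At an unadjusted p under 0.05 the count lower with TMM was also 0, as it was in DESeq2. The rises with TMM lay in the subunits of eEF1 and eEF2, 5 of 6, with a median of 0.87 (-0.26 with total reads).

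Eef1a1 (chr9:78478449-78489151, minus strand), which encodes the tRNA carrier eEF1A, stood at 1262, 1142 and 1229 CPM in WT and 4905, 4675 and 4287 CPM in KO. The groups were far apart, a 3.82-fold difference (log2 1.93, SE 0.07, adjusted p = 9.11e-08), and with total reads it was still higher at 0.80. The GTP exchange subunits of eEF1A followed at a smaller size. Eef1g, the scaffold of that complex, went from 270, 254 and 260 CPM to 559, 540 and 553 CPM (log2 1.08, SE 0.06, adjusted p = 7.13e-07). With total reads it stood at -0.06 with no call.

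The 2 catalytic exchange subunits moved together with TMM. Eef1b2 went from 183, 185 and 199 CPM to 342, 371 and 339 CPM (log2 0.89, SE 0.07, adjusted p = 7.85e-06; -0.25 with total reads). Eef1d went from 191, 182 and 193 CPM to 358, 346 and 322 CPM (log2 0.86, SE 0.06, adjusted p = 7.99e-06; -0.27 with total reads). For both genes the lowest KO library lay above the highest WT library. Eef2 went from 490, 447 and 458 CPM to 711, 707 and 675 CPM, the smallest of the 5 rises (log2 0.58, SE 0.06, adjusted p = 6.58e-05; -0.55 with total reads). Eef1e1, which encodes a tRNA synthetase complex protein rather than a core elongation factor, gave 36.3, 40.8 and 41.0 CPM in WT and 33.7, 40.4 and 40.5 CPM in KO, with overlapping groups (log2 -0.04, SE 0.10, adjusted p = 0.784).

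Because a ratio of 2 genes within a library needs no scaling, the subunits can be set against each other; 17 such ratios were computed. Reads of Eef1a1 over Eef2 were 2.57, 2.55 and 2.68 in WT and 6.90, 6.61 and 6.35 in KO, 2.54-fold higher. Reads of Eef1a1 over Eef1g were 4.68, 4.50 and 4.73 in WT and 8.77, 8.66 and 7.76 in KO, 1.81-fold higher. Neither pair of groups overlapped.

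**Figure D3:**
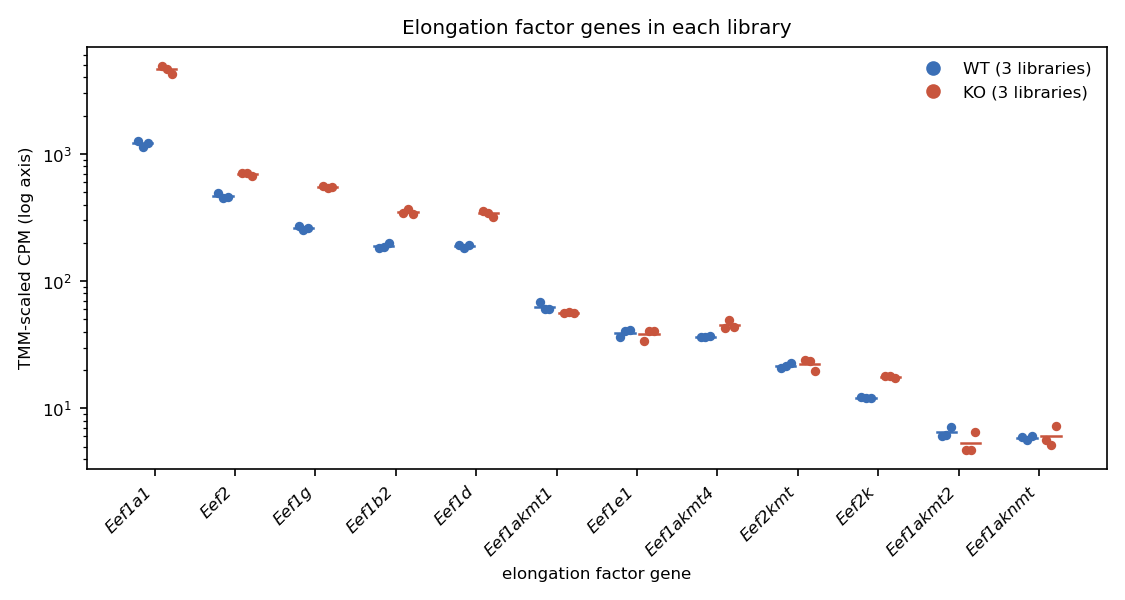
Level of the 12 elongation factor genes (x axis) in each library (TMM-scaled CPM, log axis); points are libraries and lines are group means of 3 WT and 3 KO libraries. The 5 leftmost genes, the eEF1 and eEF2 subunits other than Eef1e1, lie higher in KO without overlap; with total reads only Eef1a1 is called higher.

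The modifying enzymes of elongation factors showed smaller differences, 2 of 6 higher and 0 lower with TMM (0 at an unadjusted p under 0.05 and 0 in DESeq2), and all 6 lower with total reads; with the correction for length and GC content 1 was higher and 1 lower. Eef2k, the kinase that inhibits eEF2, went from 12.3, 12.1 and 11.95 CPM to 17.8, 17.9 and 17.4 CPM (log2 0.54, SE 0.09, adjusted p = 0.00127; -0.59 with total reads). Its rise with TMM was close to that of its substrate: reads of Eef2k over Eef2 were 0.0251, 0.0271 and 0.0261 in WT and 0.0250, 0.0253 and 0.0257 in KO, with overlapping groups. Eef1akmt4, an eEF1A methyltransferase, was the other (log2 0.32, SE 0.08, adjusted p = 0.0154; -0.82 with total reads). Its call was lost without WT 2 or KO 2, and 30.7% of its exon bases are shared with another annotated gene. Eef1akmt1 (log2 -0.16), Eef1akmt2 (-0.29), Eef1aknmt (0.03) and Eef2kmt (0.05) did not pass.

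Among the initiation factors 20 of 48 were higher and 10 lower with TMM, with a median log2 fold change of 0.21, and with total reads 2 were higher and 43 lower, with a median of -0.93. With TMM that is 41.7% and 20.8%, beside 17.2% and 14.4% of all genes. With total reads it is 4.17% and 89.6%, beside 4.23% and 70.7% of all genes. The same shares of all genes stand beside the counts of each group below. Without WT 2 or without WT 3 the count lower with TMM was 6. The summed reads of elongation over initiation factors were 0.281, 0.273 and 0.287 in WT and 0.394, 0.374 and 0.338 in KO, 1.31-fold higher, without overlap. Without Eef1a1, and with Eif5a still among the initiation factors, the order of the groups turned. The ratios were then 0.144, 0.143 and 0.147 in WT and 0.120, 0.118 and 0.111 in KO. The ratio without both genes was not computed. With Eif5a counted as an elongation factor the mean ratio went from 1.08 to 1.81. The genes counted in each class thus decide both the direction and the size of the contrast, and no difference between the 2 classes was tested.

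The genes of scanning and start-codon choice gave 4 higher and 1 lower of 6 with TMM, and 5 lower and 0 higher with total reads. Eif1, which guards against wrong start codons, was at 124, 101 and 109 CPM in WT and 277, 270 and 240 CPM in KO (log2 1.24, SE 0.09, adjusted p = 7.58e-06; 0.10 with no call with total reads). Its close paralog Eif1b gave 37.8, 39.1 and 38.8 CPM in WT and 64.3, 64.3 and 59.3 CPM in KO (log2 0.70, SE 0.07, adjusted p = 7.02e-05; -0.44 with total reads), and 12.7% of its exon bases are shared with another gene. Both rose with TMM, and reads of Eif1b over Eif1 still went down 0.688-fold, with no overlap. Eif5, the eIF2 GTPase-activating protein that opposes eIF1 in start-codon choice, was at 300, 299 and 283 CPM in WT and 347, 330 and 350 CPM in KO (log2 0.22, SE 0.06, adjusted p = 0.0193; -0.92 with total reads), a call lost without WT 2, WT 3 or KO 1. Reads of Eif1 over Eif5 were 0.414, 0.339 and 0.384 in WT and 0.798, 0.816 and 0.687 in KO, 2.03-fold higher.

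The 2 eIF1A genes were Eif1ax, which was called with TMM, and Eif1a, which was called only with the correction for length and GC content. Eif1ax was at 79.0, 77.2 and 78.0 CPM in WT and 107, 106 and 102 CPM in KO (log2 0.43, SE 0.06, adjusted p = 6.46e-04; -0.71 with total reads). Eif1a was at 77.9, 89.6 and 84.9 CPM in WT and 101, 97.4 and 86.1 CPM in KO (log2 0.17, adjusted p = 0.162), and its highest WT library lay above its lowest KO library. The fall in this group was Eif1ad, an eIF1A-domain protein named for its fold, at 172, 169 and 163 CPM in WT and 115, 102 and 116 CPM in KO (log2 -0.60, SE 0.07, adjusted p = 1.75e-04). Its exons share 15.3% of their bases with Banf1, so reads there cannot be assigned with certainty.

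The 3 eIF2 subunits gave 0 calls in either direction with TMM, 0 at an unadjusted p under 0.05 and 0 in DESeq2. With total reads all 3 were lower, and with the correction for length and GC content 1, Eif2s1, was higher (log2 0.41, adjusted p = 0.00259). Eif2s1, the subunit phosphorylated in the integrated stress response, was at 101, 132 and 123 CPM in WT and 129, 137 and 148 CPM in KO (log2 0.22, SE 0.10, adjusted p = 0.149). Eif2s2 was at 89.3, 84.3 and 88.8 CPM in WT and 84.3, 84.3 and 93.7 CPM in KO (log2 0.00, adjusted p = 0.996). Eif2s3x, the GTP-binding subunit, was at 14.0, 15.7 and 15.2 CPM in WT and 12.5, 14.6 and 10.1 CPM in KO (log2 -0.27, SE 0.14, adjusted p = 0.172). The groups overlapped for all 3 subunits.

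Of the 5 eIF2B genes, whose complex recharges eIF2 with GTP, only Eif2b3 was called, and it was lower: 46.2, 46.5 and 46.8 CPM in WT against 31.0, 40.7 and 35.5 CPM in KO (log2 -0.38, SE 0.10, adjusted p = 0.0196). That call was lost without WT 1, without WT 2, without WT 3 and with the correction for length and GC content. Eif2b2 was the most counted of the group, at 75.8, 67.5 and 69.8 CPM in WT and 74.0, 75.5 and 74.4 CPM in KO, and was not called. Eif2a, a factor for non-canonical starts, fell from 12.6, 13.5 and 13.5 CPM to 9.27, 8.39 and 10.6 CPM (log2 -0.48, SE 0.12, adjusted p = 0.0124), a call lost without WT 2 or WT 3, and the related Eif2d (log2 0.05) was not called.

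eIF3, the largest initiation complex, gave 9 higher and 3 lower of 14 with TMM, with a median log2 fold change of 0.45, and 0 higher and 13 lower with total reads. Its subunits did not move as 1 block. Eif3k, the most counted, was at 462, 420 and 439 CPM in WT and 894, 874 and 802 CPM in KO, and had the largest rise with TMM (log2 0.96, SE 0.07, adjusted p = 4.30e-06; -0.17 with total reads). Eif3g (0.88), Eif3h (0.85), Eif3i (0.85), Eif3e (0.64), Eif3l (0.55), Eif3d (0.45), Eif3m (0.44) and Eif3c (0.32) were the other rises with TMM, and all 8 were lower with total reads. Eif3d shares 43.3% of its exon bases with another annotated gene. Eif3a, the largest subunit, lay lower in every KO library and did not pass (log2 -0.19, adjusted p = 0.0702). Without WT 1 it was called lower (-0.22, adjusted p = 0.0364), and with the correction for length and GC content its log2 fold change was 0.03.

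Eif3f, which with Eif3h makes up the pair of MPN-domain subunits, stood at 35.2, 35.6 and 37.8 CPM in WT and 18.9, 19.1 and 16.9 CPM in KO. This 1.98-fold fall was the largest log2 change downward among the members (log2 -0.98, SE 0.09, adjusted p = 2.45e-05; -2.12 with total reads). Its reads over those of Eif3h were 0.295, 0.292 and 0.294 in WT and 0.0884, 0.0838 and 0.0748 in KO, so the ratio in KO was 0.280 of that in WT. Over Eif3m, another partner, the ratio in KO was 0.372 of that in WT. Eif3b, the scaffold of the Eif3b, Eif3g and Eif3i module, fell while both of its partners rose with TMM. It was at 109, 90.3 and 90.2 CPM in WT and 64.9, 68.1 and 64.8 CPM in KO (log2 -0.55, SE 0.09, adjusted p = 0.00127). Reads of Eif3b over Eif3g and over Eif3i in KO were 0.373 and 0.381 of those in WT, with no overlap of the groups.

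The third fall in eIF3, Eif3j1, has a near-identical copy, Eif3j2, and their counts cannot be separated with certainty. Eif3j1 had 545, 739 and 996 reads in WT and 236, 272 and 181 in KO, whereas Eif3j2 had 225, 274 and 0 in WT and 124, 96 and 0 in KO. The copy is listed at 0 in the third library of both groups, whatever the genotype. Summed over the pair, the levels were 12.03, 12.4 and 11.5 CPM in WT and 9.56, 10.4 and 6.30 CPM in KO. On its own Eif3j1 was lower in KO by the test (log2 -0.52, SE 0.16, adjusted p = 0.0322), a call lost without WT 2, WT 3, KO 1 or KO 3. It shares 18.99% of its exon bases with Spg11.

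**Figure D4:**
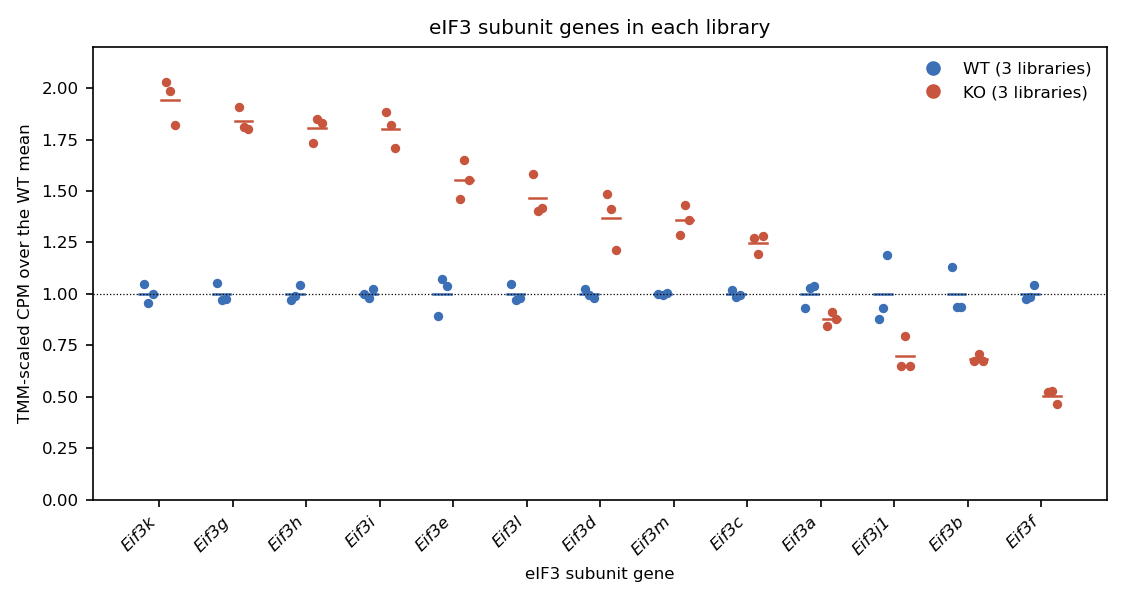
Level of the eIF3 subunit genes except Eif3j2 in each library, as TMM-scaled CPM over the gene's WT mean (y axis), ordered by log2 fold change (x axis); points are libraries and lines are group means. Eif3j1, Eif3b and Eif3f were called lower in KO and the 9 subunits at the left higher, which turn lower with total reads.

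The eIF4 genes gave 5 higher and 2 lower of 12 with TMM, and 1 higher and 10 lower with total reads; with the correction for length and GC content 8 were higher and 2 lower. The eIF4A helicase genes differed in size. Eif4a1 (chr11:69666936-69672423, minus strand) was at 980, 906 and 901 CPM in WT and 2608, 2716 and 2801 CPM in KO, 2.92-fold higher (log2 1.54, SE 0.06, adjusted p = 1.36e-07; 0.41 with total reads, still called). Eif4a2 was at 20.6, 24.6 and 27.6 CPM in WT and 26.5, 24.7 and 26.6 CPM in KO, with overlapping groups (log2 0.09, SE 0.11, adjusted p = 0.582). Reads of Eif4a1 over Eif4a2 went from 47.5, 36.9 and 32.7 to 98.4, 110 and 105, 2.71-fold higher. Eif4a3, the exon junction complex helicase, was at 171, 181 and 193 CPM in WT and 308, 308 and 302 CPM in KO (log2 0.75, SE 0.06, adjusted p = 2.07e-05; -0.38 with total reads). The rare Eif4a3l2 averaged 0.360 CPM in WT and 0.481 CPM in KO and was not called.

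The 2 cofactors of eIF4A moved apart with TMM. Eif4h was at 122, 118 and 116 CPM in WT and 204, 199 and 209 CPM in KO (log2 0.78, SE 0.06, adjusted p = 1.01e-05; -0.36 with total reads). Eif4b was at 36.6, 36.2 and 41.5 CPM in WT and 27.8, 26.1 and 28.0 CPM in KO, a fall (log2 -0.48, SE 0.09, adjusted p = 0.00249). Reads of Eif4h over Eif4b were 2.39-fold higher in KO and those of Eif4a1 over Eif4b 4.07-fold higher, both without overlap, so the contrast does not rest on the scaling.

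Among the cap-binding genes, Eif4e, the cap-binding protein of the eIF4F complex, was at 136, 157 and 148 CPM in WT and 158, 168 and 179 CPM in KO and did not pass (log2 0.19, SE 0.08, adjusted p = 0.0925). Eif4e2, a repressive paralog, was at 104, 107 and 118 CPM in WT and 134, 137 and 125 CPM in KO (log2 0.26, SE 0.07, adjusted p = 0.0226; -0.87 with total reads). Eif4e3 was at 17.5, 14.2 and 14.9 CPM in WT and 26.4, 18.6 and 21.8 CPM in KO (log2 0.52, SE 0.14, adjusted p = 0.0206; -0.62 with total reads), and 14.8% of its exon bases are shared with another gene. Eif4e2 lost its call without WT 2, KO 1 or KO 2, and Eif4e3 without WT 2, WT 3 or KO 1. The scaffold genes gave 1 fall. Eif4g3 was at 13.2, 16.4 and 12.8 CPM in WT and 8.90, 8.79 and 9.09 CPM in KO (log2 -0.66, SE 0.12, adjusted p = 0.00315). Eif4g1 was at 48.8, 40.6 and 39.1 CPM in WT and 36.5, 35.5 and 37.3 CPM in KO (log2 -0.23, SE 0.10, adjusted p = 0.102). Eif4g2, a scaffold that does not bind eIF4E, was at 62.6, 68.2 and 63.8 CPM in WT and 65.2, 66.5 and 64.2 CPM in KO (log2 0.01, SE 0.07, adjusted p = 0.932).

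Of the 3 genes for eIF4E-binding and transport, 0 were higher and 1 was lower with TMM (1 higher and 1 lower at an unadjusted p under 0.05, and 0 higher in DESeq2). With total reads all 3 were lower, and with the correction for length and GC content 1, Eif4ebp2, was higher (log2 0.39, adjusted p = 0.0159) and 0 were lower. Eif4ebp1, the mTORC1-controlled inhibitor of eIF4E, was at 178, 134 and 130 CPM in WT and 187, 166 and 173 CPM in KO, with WT 1 inside the KO range (log2 0.25, SE 0.12, adjusted p = 0.143); without WT 1 it was called higher (0.42, adjusted p = 0.00303). Eif4ebp2 was at 14.6, 14.97 and 16.5 CPM in WT and 16.99, 19.8 and 18.8 CPM in KO (log2 0.27, SE 0.10, adjusted p = 0.0725). Reads of Eif4e over Eif4ebp1 overlapped between the groups. Eif4enif1, which carries eIF4E into the nucleus, was at 15.8, 20.01 and 17.8 CPM in WT and 14.9, 12.2 and 10.97 CPM in KO (log2 -0.49, SE 0.14, adjusted p = 0.0243), a call lost without WT 2, WT 3, KO 2 or KO 3.

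Eif5a (chr11:69916714-69921958, minus strand) was the most counted member, at 3550, 3345 and 3380 CPM in WT and 8976, 9374 and 9879 CPM in KO. The difference was 2.75-fold (log2 1.46, SE 0.06, adjusted p = 1.45e-07), and 0.33 on the log2 scale with total reads, still called. On the deposited length-scaled values, FPKM, it was also the highest, at 3186 ± 22.0 in WT and 3978 ± 238 in KO. The next were Eef1a1, at 839 ± 24.3 and 1459 ± 82.9 FPKM, and, in WT, Eif3k at 703 FPKM and Eif4a1 at 667 FPKM. FPKM divides by a library total rather than by a typical gene, and in it 3 members lay higher in every KO library, 53 lower and 4 overlapped, beside 4.82% and 74.3% of all genes tested.

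The 2 factors of subunit joining moved in opposite directions with TMM. Eif5b, the GTPase that joins the subunits, fell from 60.6, 80.2 and 80.2 CPM to 46.0, 35.2 and 31.9 CPM (1.95-fold lower; log2 -0.97, SE 0.15, adjusted p = 0.00122). It shares 16.9% of its exon bases with Rev1. Eif6, which keeps the large subunit free, was at 529, 466 and 437 CPM in WT and 731, 666 and 714 CPM in KO (log2 0.56, SE 0.08, adjusted p = 5.73e-04; -0.57 with total reads). Reads of Eif6 over Eif5b were 8.73, 5.80 and 5.44 in WT and 15.9, 18.9 and 22.4 in KO, 2.90-fold higher with no overlap.

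Members called higher were on the median the more abundant and shorter ones, the length difference lying in the initiation factors. Their median level over all libraries was 94.8 FPKM and their median exon length 2702 bases, against 7.71 FPKM and 5974 bases for the 10 lower members and 11.99 FPKM and 3812 bases for the 23 without a call. Over the whole table the medians were 22.7 FPKM and 1857 bases for higher genes, 3.90 FPKM and 4342.5 bases for lower ones and 0.880 FPKM and 3808.5 bases for those without a call, so there the genes without a call had the lowest level. Across the 60 genes the log2 fold change went with the log2 FPKM at Pearson r = 0.69 and Spearman rho = 0.72, against 0.31 and 0.28 over 15455 genes, and with log2 exon length at -0.31 and -0.33, against -0.27 and -0.27. With log2 exon length the Pearson r was -0.42 among initiation factors and 0.14 among elongation factors. In the latter the median length was 2600 bases for higher genes and 2678 for those without a call. These correlations are across genes, which are not independent replicates and share libraries. The mean FPKM also includes the KO libraries that enter the fold change. With a correction for length and GC content, Eif4enif1, Eif3j1, Eif2a, Eif2b3 and Eef1akmt4 lost their call. With the same correction 7 members gained one: Eif2s1 (log2 0.41), Eif1a (0.35), Eif4a2 (0.29), Eif4e (0.39), Eif4g2 (0.23) and Eif4ebp2 (0.39) were higher and Eef1akmt1 (-0.68) was lower. Initiation factors then gave 26 higher and 6 lower, and elongation factors 6 higher and 1 lower.

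**Figure D5:**
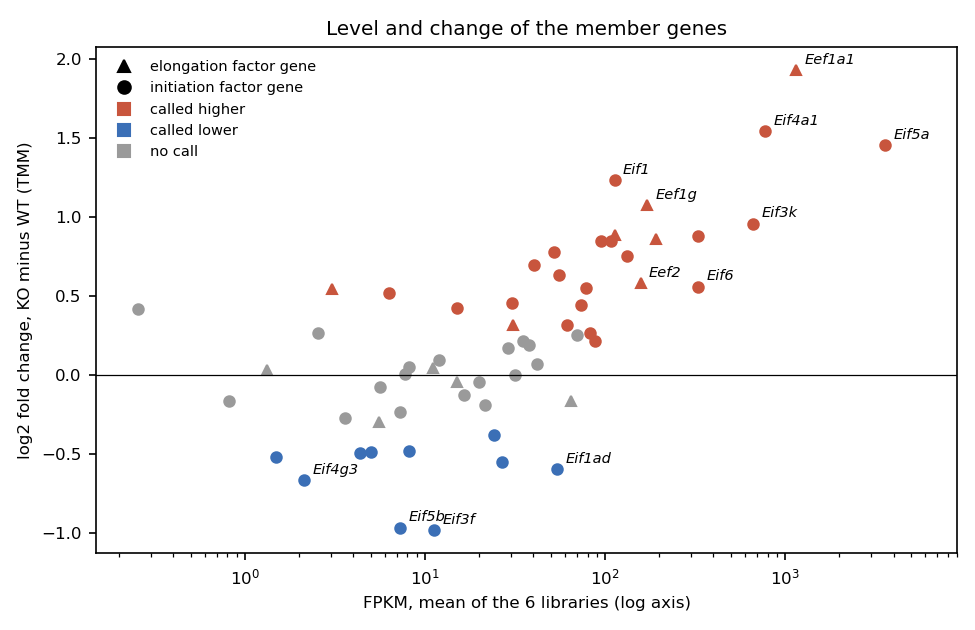
Log2 fold change (KO minus WT, TMM, y axis) of each member against its mean FPKM over the 6 libraries (x axis, log scale); triangles are elongation and circles initiation factors, coloured by call. Eif5a, Eef1a1 and Eif4a1 lie at the upper right, and Eif3f, Eif5b and Eif4g3 lie below 0 at low levels; scaling by total reads would move the median gene by -1.13.

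Pseudogene copies left out by the rule can share reads with members. Eif4a-ps4 went from 175 ± 10.2 to 540 ± 31.0 CPM (log2 1.62) and Eef1a1-ps1 from 9.33 ± 0.581 to 35.0 ± 2.15 CPM (log2 1.91). These log2 fold changes were near those of Eif4a1 (1.54) and Eef1a1 (1.93), at much lower levels. Of the 8 pseudogenes left out, Eif5al3-ps (1.86) and Eif3s6-ps2 (0.82) were also higher. Eif1-ps1 (1.76), Eef2-ps2 (0.43) and Eif3s6-ps1 (0.13) were not called, and Eif1-ps2 was not tested.

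The pathway around the factors was read from 9 lists of 93 distinct genes tested, of which 15 were higher and 18 lower with TMM and 0 and 84 with total reads (10 lower without WT 1 or WT 2 and 9 without WT 3, with TMM), beside the 17.2% and 14.4% of all genes called with TMM. With total reads 4.23% of all genes were called higher and 70.7% lower. No list was tested as a set. In the stress kinase and integrated stress response list 6 of 15 were higher, 2 lower and 7 not called with TMM (median 0.09). The count higher was 4 without WT 2 or WT 3 and 5 without WT 1, KO 1 or KO 2. The count lower was 1 without WT 1, WT 2 or KO 2. Atf4, the transcription factor translated when eIF2 is phosphorylated, was at 54.3, 50.6 and 54.6 CPM in WT and 102, 90.7 and 86.9 CPM in KO (log2 0.81, SE 0.08, adjusted p = 5.84e-05; -0.33 with total reads). Ppp1r15a and Ppp1r15b, which direct the phosphatase of eIF2, gave 0.73 and 0.70, and Ddit3, a target of Atf4, 0.53; with total reads they were lower, at -0.41, -0.43 and -0.61. Other targets of Atf4 did not all go the same way. Sesn2 was higher with TMM (0.69) and lower with total reads (-0.44). Trib3 was higher with TMM (1.56, adjusted p = 0.0428) and not called with total reads (0.43). Its levels were low, at 0.547, 0.513 and 0.335 CPM in WT and 1.65, 1.89 and 0.557 CPM in KO. Asns was lower (-0.40, adjusted p = 0.0299), and Atf5 (-1.38) and Chac1 (-0.43) were not called. Among the kinases Eif2ak2, the double-stranded RNA sensor PKR, was the 1 called, and it was lower (log2 -0.80, SE 0.18, adjusted p = 0.00898).

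In the mTORC1 and MNK list 2 of 17 were higher and 6 lower with TMM (median -0.27). The count lower was 2 without WT 1, 3 without WT 2, WT 3 or KO 1, and 4 without KO 2 or KO 3; with the correction for length and GC content it was 2 and the median -0.04. Pdcd4, an inhibitor of eIF4A, was higher at 20.7 ± 0.246 against 10.3 ± 1.18 CPM (log2 1.01, SE 0.11, adjusted p = 8.86e-05; -0.13 with no call with total reads). Rps6kb1 (log2 -0.67), a kinase that phosphorylates eIF4B, Tsc1 (-0.57) and Larp1 (-0.48), which binds TOP mRNAs, were lower, as they were with total reads. The call of Tsc1 was lost without WT 2 or WT 3 and that of Larp1 without WT 1.

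The remaining lists gave few calls. In the list of poly(A)-binding proteins and partners 1 of 8 was higher, Ssb (log2 0.96, and -0.18 with no call with total reads). Pabpn1 (-0.36) was the 1 lower. The poly(A)-binding protein genes Pabpc1 (0.10) and Pabpc4 (-0.23) were not called, nor was Larp4b. Among other initiation proteins 2 of 12 were higher and 1 lower: Rack1, the scaffold on the small subunit, went from 780 ± 96.1 to 1685 ± 18.0 CPM (log2 1.11; -0.02 with no call with total reads), Bzw1 gave 0.46 (-0.67 with total reads) and Dhx29 -0.56; with the correction for length and GC content 4 were higher and 0 lower. For termination, rescue and recycling 0 of 11 were higher and 2 lower, Hbs1l (-0.45) and Gspt1 (-0.61), and with the correction for length and GC content 2 were higher and 0 lower. Among the hypusine and diphthamide enzymes 1 of 9 was higher, Dohh (0.33; -0.80 with total reads), the last enzyme of eIF5A hypusination, and 1 lower, Dph5 (-0.36), an enzyme that modifies eEF2. In the selenocysteine list 0 of 7 were higher and 2 lower, Sephs2 (-1.06) and Eefsec (-0.25). Of 10 mitochondrial factors 2 were higher, Tufm (0.61; -0.52 with total reads) and Tsfm (0.43; -0.70), and 2 lower, Gfm2 (-0.76) and Mtif3 (-0.39). Among the partners Tpt1 (0.63; -0.50 with total reads) was higher and Vars (-0.33) lower, of 4. Leaving out a library ended the calls of Hbs1l, Gspt1 and Vars (WT 3), Dhx29 (any WT library), Dohh and Tsfm (WT 2, WT 3 or KO 2), Dph5 (WT 2, WT 3, KO 1 or KO 2), Pabpn1 (any but KO 1) and Eefsec (any but WT 3).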

How the data were processed

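RNA was sequenced with a TruSeq kit on a NovaSeq, per the labels. Per the submitters' processing notes, HISAT2 2.2.1, featureCounts 2.0.1, fastp 0.22.0, the mm10 build and DESeq2 1.32.0 were used; the sources used here do not give whether counting used strand. The authors deposited raw read counts, a length-scaled value and their own comparison (log2 fold changes, p-values, a mean signal and a test score). The deposited length-scaled values have no stated unit and were taken as FPKM: at least 98.7% of single-transcript genes lay within 1% of a constant multiple of FPKM from the counts.

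The counts were fitted with edgeR 4.0.16 in R 4.3.3 over all 15474 genes kept by filterByExpr (TMM, group as the only term, quasi-likelihood test, two-sided, Benjamini-Hochberg). The standard error is the log2 fold change over the square root of F. Alternatives were total-read and median-of-ratios scaling, no filter, a length and GC correction, a replicate block, DESeq2 1.42.0 and each library left out. The procedure was also run on simulated counts, with a small set of genes changed equally often up and down. Those counts lacked the difference in composition between WT and KO, so that run cannot judge the choice of scaling. Exons, gene positions and overlaps come from GENCODE on GRCm38, matched for 18457 of 18491 IDs. Values per library are named for the eEF1 and eEF2 subunits, for the most counted member and the largest called rise and fall of each initiation group, for paralogs, and for up to 4 genes of lowest p in each list. The members and lists were chosen with earlier results of these data known. Same-numbered WT and KO libraries did not deviate together, so the numbers were not taken as pairs.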

Additional observations from a re-analysis of the deposited data

How the results depend on the processing

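The scaling decided the most. With total reads 655 genes were higher and 10937 lower, against 2669 and 2229 with TMM, and the counts higher and lower became 1 and 10 for elongation factors, 2 and 43 for initiation factors and 0 and 84 for the pathway lists. With total reads 35 members turned to a negative log2 fold change: Eif1a -0.96, Eif1ax -0.71, Eif1b -0.44, Eif5 -0.92, Eif2s1 -0.92, Eif2b2 -1.06, Eif2d -1.08, Eif3c -0.81, Eif3d -0.68, Eif3e -0.50, Eif3g -0.25, Eif3h -0.28, Eif3i -0.28, Eif3k -0.17, Eif3l -0.58, Eif3m -0.69, Eif4a2 -1.04, Eif4a3 -0.38, Eif4a3l2 -0.71, Eif4e -0.94, Eif4e2 -0.87, Eif4e3 -0.62, Eif4g2 -1.12, Eif4h -0.36, Eif4ebp1 -0.88, Eif4ebp2 -0.86, Eif6 -0.57, Eef1b2 -0.25, Eef1d -0.27, Eef1g -0.057, Eef2 -0.55, Eef2k -0.59, Eef2kmt -1.09, Eef1aknmt -1.10 and Eef1akmt4 -0.82. So did Atf4 -0.33, Ppp1r15a -0.41, Ddit3 -0.61, Ppp1r15b -0.43, Sesn2 -0.44, Pdcd4 -0.13, Ssb -0.18, Rack1 -0.020, Bzw1 -0.67, Bzw2 -0.95, Tcf25 -1.01, Gspt2 -0.39, Dohh -0.80, Tufm -0.52, Tsfm -0.70 and Tpt1 -0.50 among the pathway genes named. The shift of the median gene by -1.13 is part of each.

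Leaving out 1 library gave 2226 to 2542 genes higher and 1356 to 2142 lower (1356 without WT 2, 1419 without WT 3). Elongation factors gave 6 to 7 higher and 0 lower, initiation factors 17 to 21 higher and 6 to 10 lower (6 without WT 2 and without WT 3), and the pathway lists 10 to 16 higher and 9 to 16 lower (10 without WT 1 or WT 2, 9 without WT 3). The length and GC correction gave 26 initiation factors higher and 6 lower, and 6 elongation factors higher and 1, Eef1akmt1, lower; with the replicate block the same correction gave 6 and 1 lower and, for the pathway lists, 8 lower. The replicate block alone gave 7 and 0 elongation factors and 20 and 9 initiation factors, with Eif3j1 the 1 member call lost; same-numbered libraries correlated at 0.04, -0.01 and 0.05, so the numbers were not taken as pairs. Median-of-ratios scaling and no filter changed no member call, and DESeq2 added Eif4e. The log2 ratio of elongation to initiation factors, 0.39, was -0.32 without Eef1a1, 0.74 with Eif5a counted as elongation and 0.73 without Eif5a (chosen after seeing the data), and 0.34 to 0.45 without 1 library. Genes without a call in either fit changed sign with the length and GC correction, without and with the replicate block: Eef1e1 0.082 and 0.079, Eif2b2 -0.047 and -0.047, Eif3a 0.027 and 0.027, Eif2s2 0.185 and 0.189, Sephs1 0.012 and 0.011, Secisbp2 0.022 and 0.022, and Aimp1 0.111 and 0.108. So did Eif4g2 with no filter (-0.0088) and Eif2s2 with median-of-ratios scaling (0.026) and in DESeq2 (0.015). Without 1 library the sign also changed for uncalled Eef1e1 (-0.088 to 0.040), Eif4g2 (-0.0042 to 0.056), Eef2kmt (-0.0058 to 0.134), Eif2d (-0.024 to 0.141), Eef1aknmt (-0.124 to 0.136), Eif2b4 (-0.082 to 0.020), Eif3j2 (-0.745 to 0.401) and Eif2s2 (-0.054 to 0.029). Eif4a3l2, with 134 reads in all, and Eif3j2, with 719, had the least depth.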
